A study of Sus scrofa with 8 samples.

Results

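The 6 genes described here code for non-collagen proteins of the extracellular matrix: periostin (POSTN), fibrillin-1 (FBN1), fibronectin (FN1), versican (VCAN), lumican (LUM) and the laminin beta-1 chain (LAMB1). Every probe set whose only symbol in the platform annotation was one of these names was taken, which gave 16 probe sets for 6 of the 6765 named genes. The choice of genes rested on earlier results of these data, namely their lower values at the high dose than in untreated animals, so that difference is given as a description without a test. The values come from left ventricular muscle remote from the infarct of 8 castrated male Yorkshire pigs under 1 year of age, with a mean weight of 54.5 kg, all of which had had a myocardial infarction. The study compared 3 untreated animals, 3 given 0.67 mg/kg of glial growth factor 2 (GGF2) per infusion (low dose) and 2 given 2.0 mg/kg per infusion (high dose), with infusions over 4 weeks. GGF2 belongs to the neuregulin-1 family and signals to cells through ERBB receptors. Each animal had 1 Affymetrix porcine array, and levels are given as log2 RMA values, so that a difference of 1 is a doubling.

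After an infarction, fibroblasts of the heart become activated and lay down matrix, also in muscle away from the scar. Fibronectin and the hyaluronan-binding proteoglycan versican form an early, provisional matrix in which cells attach and move. Periostin and lumican act on the assembly of collagen fibrils, fibrillin-1 builds microfibrils that hold latent TGF-beta, and laminin chains belong to the basement membrane around muscle cells and vessels. LAMB1 is thus a basement membrane gene among genes of the interstitial matrix.

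The arrays resembled each other, with correlations across probe sets between 0.981 and 0.994. All 12 measured cardiac muscle markers were above background, and their mean per array was 13.81 to 13.94 in untreated animals, 13.83 to 13.91 at the low dose and 13.89 to 13.94 at the high dose. As a sign of RNA quality, the controls at the 3' end of 3 transcripts exceeded those at the 5' end by 2.93 to 3.36 in untreated animals, 3.28 to 3.78 at the low dose and 3.00 to 3.03 at the high dose. Across all 23999 probe sets tested, the share with a limma adjusted p under 0.05 was 0% for high dose against untreated, where 1913 had an unadjusted p under 0.05. It was 0.025% for high against low dose (6 probe sets, with 2455 under the unadjusted threshold) and 0% for low dose against untreated, where 1081 had an unadjusted p under 0.05. The array titles give neighbouring animal numbers, here called tag numbers, to the 2 high-dose pigs. The labels do not say what these numbers mean. A feature shared by pigs with neighbouring numbers cannot be told apart from the dose. Neighbouring tag numbers were also carried by untreated replicates 1 and 3, and by untreated replicate 2 together with low-dose replicate 1.

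With each gene read by its brightest probe set, all 6 were lower in both high-dose animals than in any of the other 6 animals. The median difference over the 6 genes was -1.25 between high dose and untreated and -1.09 between high and low dose. Between low dose and untreated the median difference was -0.12, and it turned to 0.043 without untreated replicate 2 and low-dose replicate 1 and was -0.022 without untreated replicate 2 alone. Over all probe sets tested the medians were 0.01, 0.01 and 0.01. Of all probe sets, 12% were lower at the high dose than in untreated animals with no overlap between the groups, and 13% were lower than at the low dose in the same way. The first of these comparisons chose the genes, and the second shares its high-dose animals, so neither count of 6 is independent evidence. Since the tissue was measured in bulk, fewer matrix-producing cells and less RNA per cell cannot be told apart.

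**Figure D1:**
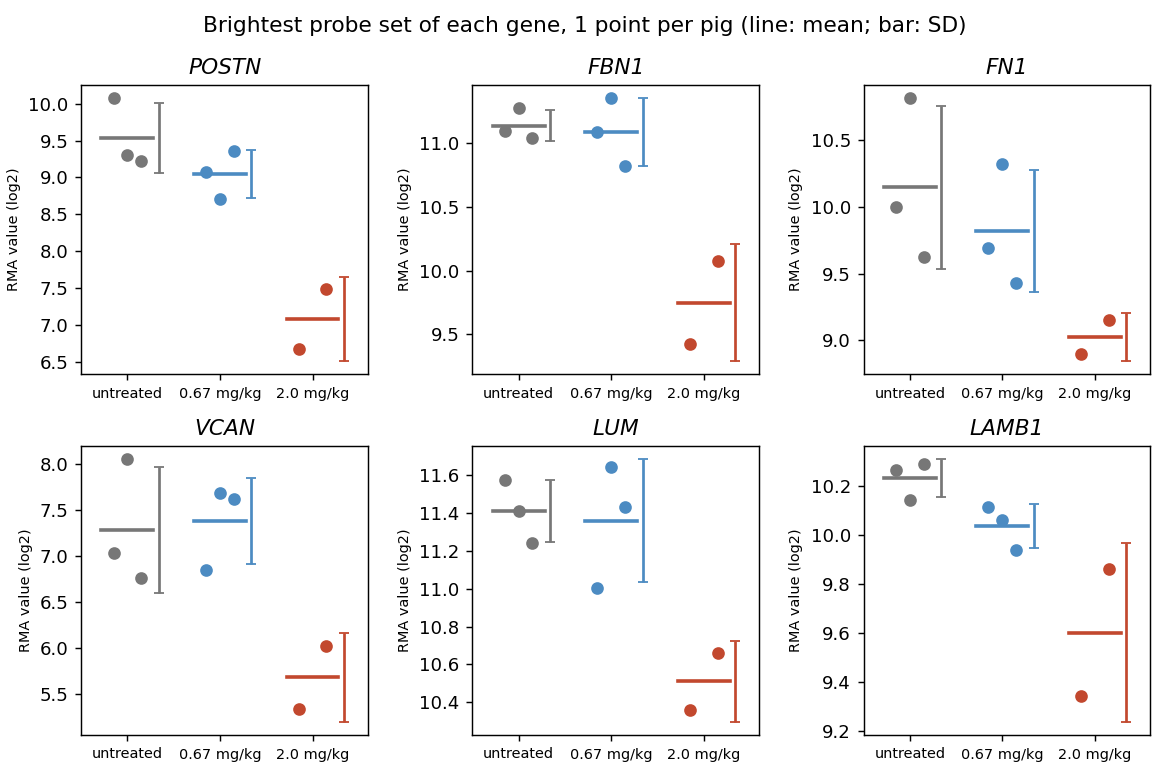
RMA values (log2) of the brightest probe set of each of the 6 genes for untreated, 0.67 mg/kg and 2.0 mg/kg animals, 1 point per pig, with the group mean as a line and the SD as a bar; each panel has its own axis range. In every panel both 2.0 mg/kg points lie below all other points, by 1.23 for POSTN and by 0.08 for LAMB1.

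Periostin is a matricellular protein that activated fibroblasts secrete, and it had the largest difference of the 6 genes at the high dose. POSTN measured 10.08, 9.30 and 9.23 in untreated animals, 9.08, 8.71 and 9.36 at the low dose, and 6.68 and 7.48 at the high dose. Both high-dose values were far below the rest, with a gap of 1.23 to the lowest of the other animals, while the low-dose and untreated values overlapped. The high-dose mean of 7.08 ± 0.57 (SD, n = 2) was lower than the untreated mean of 9.54 ± 0.47 (n = 3) by 5.48-fold, a log2 difference of -2.45 ± 0.33 (SE). Of all 23999 probe sets, 7 had a more negative difference in this comparison. Since the comparison chose the genes, this rank is a description only. Against the low-dose mean of 9.05 ± 0.33 (n = 3) the high-dose mean was 3.92-fold lower, at -1.97 ± 0.33 with a 95% interval of -2.71 to -1.23 (limma adjusted p = 0.146). The low dose differed from untreated by -0.48 ± 0.29 (95% interval -1.15 to 0.18, limma adjusted p = 0.998), and leaving out untreated replicate 1 made it -0.21, while leaving out low-dose replicate 2 made it -0.32. The other POSTN probe set was close to background, at 2.599 to 3.19 on the 8 arrays, and differed by -0.04 between high dose and untreated and by -0.13 between high and low dose.

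Fibrillin-1 was read by 2 probe sets that both lay above background. The brighter one measured 11.09, 11.27 and 11.04 in untreated animals, 11.09, 11.35 and 10.82 at the low dose, and 9.43 and 10.07 at the high dose. The other measured 8.06, 7.62 and 7.79 in untreated animals, 7.26, 7.56 and 7.97 at the low dose, and 5.93 and 6.95 at the high dose. On both, the high-dose animals lay below all others and the low-dose values overlapped the untreated ones. The 2 FBN1 probe sets gave nearly the same difference between high dose and untreated, -1.39 ± 0.22 and -1.38 ± 0.31 (SE), or 2.61-fold lower on each. Between high and low dose they gave -1.34 ± 0.22 and -1.16 ± 0.31 (limma adjusted p = 0.145 and 0.287). The low dose differed from untreated by -0.05 on the brighter one, with a 95% interval of -0.49 to 0.40, and by -0.22 on the other (limma adjusted p = 0.998 for both).

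Versican had 5 probe sets, and on 3 of them, 1 of which was close to background, both high-dose animals lay below all others. The brightest measured 7.04, 8.06 and 6.76 in untreated animals, 6.85, 7.68 and 7.62 at the low dose, and 5.34 and 6.03 at the high dose. The next measured 5.60, 6.505 and 5.38 in untreated animals, 5.26, 6.03 and 6.12 at the low dose, and 4.30 and 4.64 at the high dose. Untreated replicate 2 was the highest animal on both, and the SD of the untreated group, 0.68 and 0.59, was among the largest of the member probe sets. High dose and untreated differed by -1.60 ± 0.41 and -1.36 ± 0.36 (SE), or 3.03-fold and 2.57-fold lower. High and low dose differed by -1.70 ± 0.41 and -1.34 ± 0.36 (limma adjusted p = 0.261 and 0.289), and the 95% interval of the first was -2.63 to -0.76. Another VCAN probe set, close to background, was at 3.42 to 3.95 in untreated animals, at 3.79 to 4.35 at the low dose and at 3.18 and 3.21 at the high dose. Its difference between high dose and untreated was smaller, at -0.47. The remaining 2, with means of 4.30 and 2.75, showed differences of -0.01 and 0.08 between high dose and untreated. The low dose differed from untreated by 0.10 on the brightest probe set, with a wide 95% interval of -0.74 to 0.93.

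Fibronectin, the adhesive glycoprotein that cells assemble into fibrils through integrins, had 4 probe sets, and the brightest was far brighter than the rest. That one measured 10.001, 10.82 and 9.62 in untreated animals, 9.70, 10.32 and 9.43 at the low dose, and 8.90 and 9.15 at the high dose. The high-dose values were the lowest, but the gap to the next animal was 0.28, smaller than the SD of 0.61 among untreated animals. The difference was -1.12 ± 0.36 (SE) between high dose and untreated and -0.79 ± 0.36 between high and low dose, with a 95% interval of -1.61 to 0.02 (limma adjusted p = 0.504). FN1 was the 1 gene of the 6 whose interval for high against low dose included 0. These intervals were not adjusted for the number of probe sets, and 0 of the 6 genes passed in that comparison. The high-dose animals also chose the genes, so the intervals are not independent evidence. At the low dose FN1 differed from untreated by -0.33 ± 0.32 (limma adjusted p = 0.998). The other FN1 probe sets had means of 4.25, 3.66 and 2.79 and differed by 0.07, -0.11 and 0.17 between high dose and untreated and by 0.23, -0.12 and 0.21 between high and low dose, which is not the pattern of the brightest one.

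Lumican, a small leucine-rich proteoglycan that binds collagen fibrils, had 1 probe set. It measured 11.57, 11.41 and 11.24 in untreated animals, 11.003, 11.64 and 11.43 at the low dose, and 10.36 and 10.66 at the high dose. The high-dose animals lay 0.34 or more below the others, and the low-dose group held both the highest and the lowest of the remaining 6 values. LUM was 1.86-fold lower at the high dose than in untreated animals, at -0.90 ± 0.20 (SE), and differed by -0.85 ± 0.20 from the low dose, with a 95% interval of -1.31 to -0.39 (limma adjusted p = 0.258). The low dose differed from untreated by -0.05, with an interval of -0.46 to 0.36.

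LAMB1, a chain of the laminin heterotrimers, had the smallest difference. Its brighter probe set measured 10.26, 10.14 and 10.29 in untreated animals, 10.11, 10.06 and 9.94 at the low dose, and 9.34 and 9.86 at the high dose. This was the only gene of the 6 whose 3 low-dose values all lay below the 3 untreated values, a pattern that 3.87% of all probe sets showed. High-dose replicate 2 was only 0.08 below the lowest low-dose animal. The difference was -0.63 ± 0.16 (SE) between high dose and untreated, -0.44 ± 0.16 between high and low dose (limma adjusted p = 0.411) and -0.19 ± 0.14 between low dose and untreated (limma adjusted p = 0.998). The dimmer LAMB1 probe set, with a mean of 4.79, gave -0.23, -0.27 and 0.04 for the same comparisons.

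**Figure D2:**
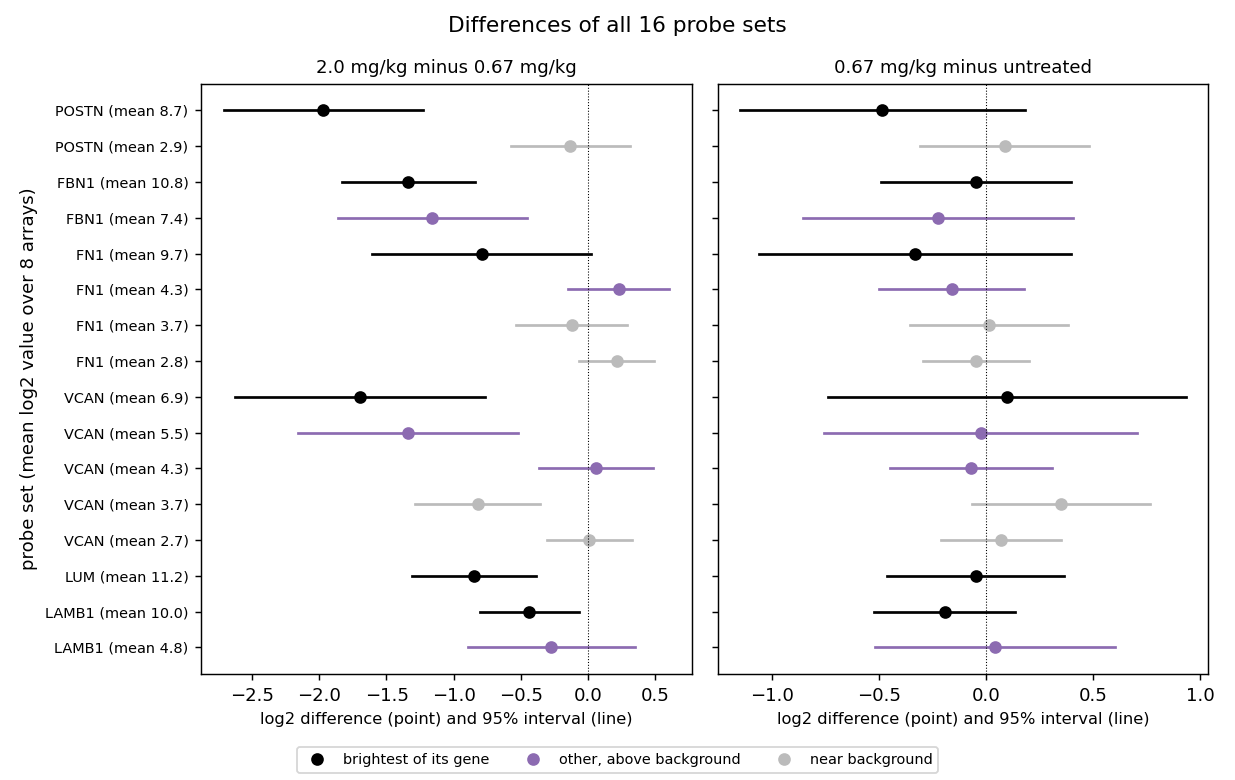
Log2 differences (points) with 95% intervals (lines) for all 16 probe sets, 2.0 mg/kg minus 0.67 mg/kg on the left and 0.67 mg/kg minus untreated on the right, grouped by gene with the mean log2 value over 8 arrays beside each name. Black marks the brightest probe set of a gene, purple the others above background and grey those near background. On the left, the intervals of the brightest probe set of every gene but FN1 lie below 0. The same holds for the other FBN1 and 2 further VCAN probe sets, of which the dimmer was near background. Every interval on the right includes 0. The intervals are not adjusted for the number of probe sets, and the high-dose animals on the left also chose the genes.

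Of the 16 probe sets, 11 had a mean above the lower quartile of all values (3.77), below which values were taken as close to background. None of the 16 passed between high and low dose (0 with a limma adjusted p under 0.05). In that comparison 8 of the 16 were lower with an unadjusted p under 0.05, against 5.85% of all probe sets. It shares its high-dose animals with the comparison that chose the genes, so this count is not independent evidence. Several of the 8 also belong to the same gene, and a VCAN probe set among them was close to background. Between low dose and untreated 0 passed, and 0 were lower with an unadjusted p under 0.05, against 1.74% of all probe sets. Without high-dose replicate 1 the log2 difference of LAMB1 was -0.37 against untreated, in place of -0.63, and -0.18 against the low dose, in place of -0.44.

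The 2 high-dose animals differed from each other in the same way for each gene. High-dose replicate 1 was below high-dose replicate 2 on the brightest probe set of all 6 genes, by 0.81 for POSTN, 0.68 for VCAN, 0.65 for FBN1, 0.51 for LAMB1, 0.30 for LUM and 0.26 for FN1. Over all probe sets tested, 50.2% were lower in replicate 1. The mean of the 6 genes after centring was -1.22 and -0.68 in high-dose replicates 1 and 2, against 0.14 to 0.61 in untreated animals.

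Among the other 6 animals the genes did not share 1 order. POSTN was highest in untreated replicate 1, FN1 and VCAN in untreated replicate 2, LAMB1 in untreated replicate 3, and FBN1 and LUM in low-dose replicate 2. The lowest of these 6 values was that of low-dose replicate 2 for POSTN, low-dose replicate 3 for FBN1, FN1 and LAMB1, low-dose replicate 1 for LUM and untreated replicate 3 for VCAN.

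**Figure D3:**
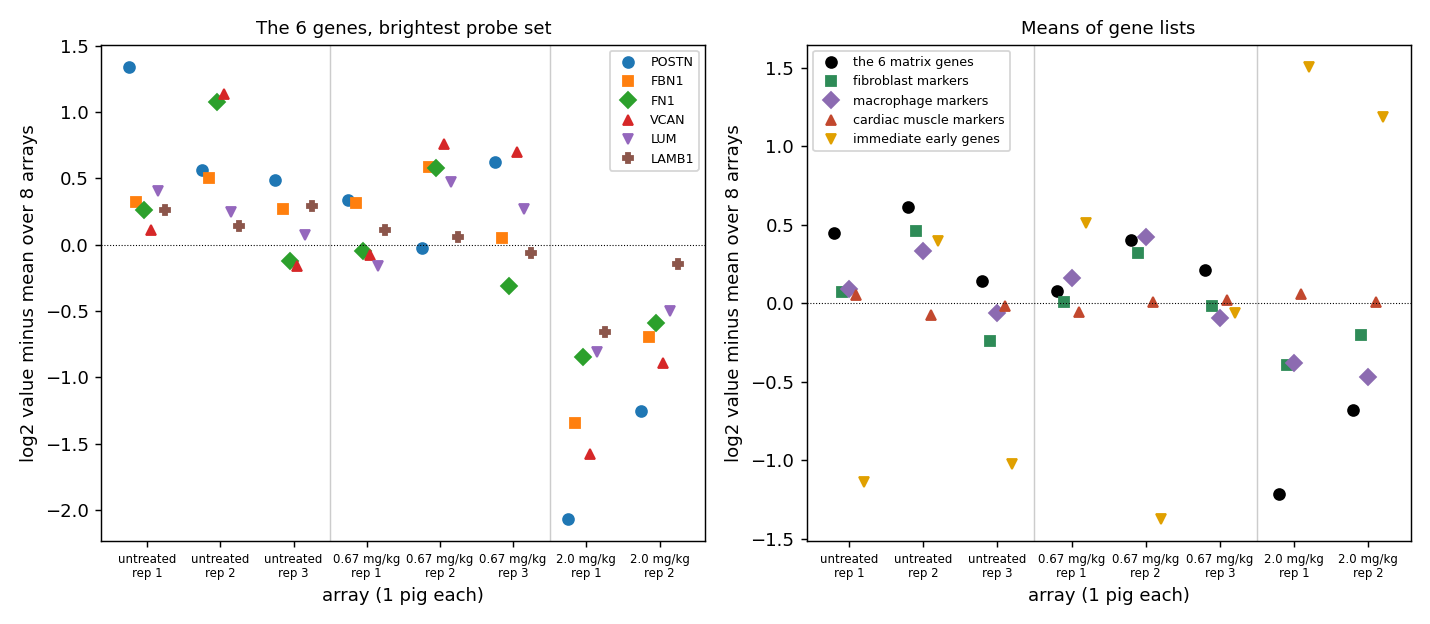
Log2 values minus the mean over 8 arrays for each pig (untreated, 0.67 mg/kg and 2.0 mg/kg, separated by grey lines), for the 6 genes on the left and for means of gene lists on the right. On the left all 6 genes are below 0 in both 2.0 mg/kg animals, and on the right the immediate early genes are at 1.503 and 1.19 there while the cardiac muscle markers stay near 0 on all 8 arrays.

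The genes most like the mean profile of the 6, among 852 other genes with a probe set above the median value and a range of at least 1 over the arrays, were FAP, CCL24, THY1, LOC100624077, C1QTNF3, TRIM52, SPARC and GUSB. Their Pearson r with the profile over the 8 arrays ran from 0.928 for GUSB to 0.973 for FAP. The 2 high-dose animals lie far from the rest, and r over the other 6 animals was lower, from 0.559 for C1QTNF3 to 0.883 for LOC100624077. FAP, a surface protease of activated fibroblasts, measured 7.75, 8.18 and 7.69 in untreated animals, 7.60, 7.91 and 7.82 at the low dose, and 6.85 and 7.21 at the high dose. THY1, a surface protein of fibroblasts and some other cells, measured 9.90, 10.06 and 9.66 in untreated animals, 9.72, 10.13 and 9.38 at the low dose, and 8.14 and 8.89 at the high dose. In both genes the high-dose values lay below all others. The genes were picked for likeness to a profile that is low at the high dose, so this is not independent evidence. Of all probe sets, 12% were lower at the high dose than in untreated animals without overlap, and 13% than at the low dose. Between high dose and untreated, C1QTNF3 was at -2.98, LOC100624077 at -1.32 and CCL24 at -1.07. A second THY1 probe set above background differed by -0.93 between high dose and untreated, against -1.36 on the brightest, and another, with a mean of 5.07, by 0.02. The genes most opposite to the profile were MYOCD, PLK2, TOB1 and NR4A2, with r between -0.960 and -0.863 over 8 arrays and between -0.35 and -0.18 over the 6 animals without the high dose.

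The rest of the matrix pathway was followed in 10 lists holding 154 other genes, of which 82 were measured. At the high dose 53 of the 82 were lower than at the low dose, with a median of -0.09, and 0 passed in either direction. Against untreated 54 of the 82 were lower, with a median of -0.09, and 0 passed. In the low-dose animals 33 of the 82 were lower than in untreated ones, with a median of 0.04, and 0 passed. Over all probe sets tested 48.9%, 46.7% and 48.0% were lower in these comparisons.

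Matricellular proteins, which like periostin sit in the matrix and signal to cells, were mixed: 7 of 10 were lower and 3 higher at the high dose than in untreated animals, with a median of -0.14. SPARC, a collagen-binding matricellular protein, measured 13.40, 13.60 and 13.08 in untreated animals, 13.27, 13.64 and 12.996 at the low dose, and 12.17 and 12.85 at the high dose, a difference of -0.85 ± 0.26 from untreated (SE; limma adjusted p = 0.438). A dimmer SPARC probe set (mean 5.69) gave -0.01. CCN1, listed under its older symbol CYR61, went the other way with 11.20 and 11.24 at the high dose against 9.37 to 9.93 in untreated animals (1.51 ± 0.55, limma adjusted p = 0.536). THBS1, the adhesive glycoprotein thrombospondin-1, was at 0.91 with overlap on its brightest probe set, at 1.56 with no overlap on the next (mean 6.83), and at 0.74 and 0.68 with overlap and -0.09 near background on the others. The hyaluronan-binding protein TNFAIP6, near background, was at -0.39.

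Among 4 measured genes of microfibrils and elastic fibres, all were lower at the high dose than in untreated animals on the brightest probe set. Against the low dose 2 were lower and 2 higher. MFAP5, which binds fibrillin, measured 9.997, 10.38 and 9.85 in untreated animals, 10.07, 10.38 and 9.87 at the low dose, and 8.97 and 9.71 at the high dose, a difference of -0.74 ± 0.25 (SE; limma adjusted p = 0.511). FBLN1 was at -0.44, MFAP2, near background, at -0.15 and EFEMP2 at -0.01. Dimmer EFEMP2 probe sets above background were higher, at 0.24 with no overlap and at 0.09 with overlap.

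Of 9 proteoglycan genes, 7 were lower and 2 higher at the high dose than in untreated animals, with a median of -0.25. The small leucine-rich proteoglycans DCN, ASPN and BGN, relatives of lumican, were at -0.77, -0.53 and -0.73, each with no overlap, PRELP of the same family was at -0.46 with overlap, and the membrane proteoglycan SDC4 was at 0.77 with overlap. Of 5 basement membrane genes 4 were lower, with a median of -0.39. LAMC1, the gamma chain that pairs with LAMB1 in laminin heterotrimers, was at -0.39 on its brightest probe set and at 0.09, -0.36 and 0.03 on 3 dimmer ones. COL15A1, NID2 and COL4A2 were at -0.61, -0.71 and -0.39.

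Of 9 fibrillar and associated collagens 7 were lower and 2 higher, with a median of -0.19. COL8A1 was at -1.09 on its brightest probe set, at -0.06 and -0.09 on dimmer ones and at 0.20 on another near background. COL6A3 (mean 9.93) was at -0.69 and COL3A1 (mean 6.04) at 0.83. COL5A1 was at -0.61 on its brightest probe set and between -0.36 and 0.21 on the others. Of 9 crosslinking and folding genes 6 were lower, with a median of -0.12. LOXL1, a lysyl oxidase, was at -0.88, PCOLCE2, an enhancer of procollagen processing, at -1.01, P4HA2, a prolyl hydroxylase subunit, at -0.39, and BMP1, the procollagen C-proteinase, at -0.36. Dimmer probe sets of P4HA2 and BMP1 gave 0.07 and 0.06.

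Receptors and signals had smaller medians. Of 10 matrix receptor genes 5 were lower and 5 higher at the high dose than in untreated animals, with a median of -0.05. ITGB1, the integrin chain of most fibronectin and laminin receptors, measured 12.00, 11.92 and 11.93 in untreated animals, 12.12, 11.88 and 11.96 at the low dose, and 11.37 and 11.73 at the high dose. Its difference was -0.40 ± 0.14 (SE; limma adjusted p = 0.519). ITGB5 and the collagen receptor DDR1 were at 0.24 and 0.35, and HMMR, near background, at -0.45. Of 12 genes of TGF-beta signalling 9 were lower and 3 higher, with a median of -0.05. The receptor TGFBR1 was at -0.47 with no overlap, BAMBI, an inhibitor, at -0.46 (0.09 on a dimmer probe set), TGIF1, a repressor, at -0.62 and the coreceptor ENG at 0.27, while the ligands TGFB1, TGFB2 and TGFB3 were at -0.03, 0.04 and -0.25.

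Of 12 proteases and inhibitors 4 were lower and 8 higher at the high dose than in untreated animals, with a median of 0.13. ADAMTS1, a protease that cleaves versican, measured 9.59, 10.16 and 9.14 in untreated animals, 10.02, 10.20 and 9.91 at the low dose, and 11.05 and 10.47 at the high dose. Its difference of 1.13 ± 0.29 (SE) did not pass (limma adjusted p = 0.384), and a second ADAMTS1 probe set was at 0.95. The gelatinase MMP2 was at -0.63 and MMP14 at -0.23, and MMP3 was near background. Of 6 genes for hyaluronan enzymes and binding proteins, 4 were lower, with a median of -0.10. HYAL1 was at -0.15 and HAPLN1, near background, at 0.13.

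**Figure D4:**
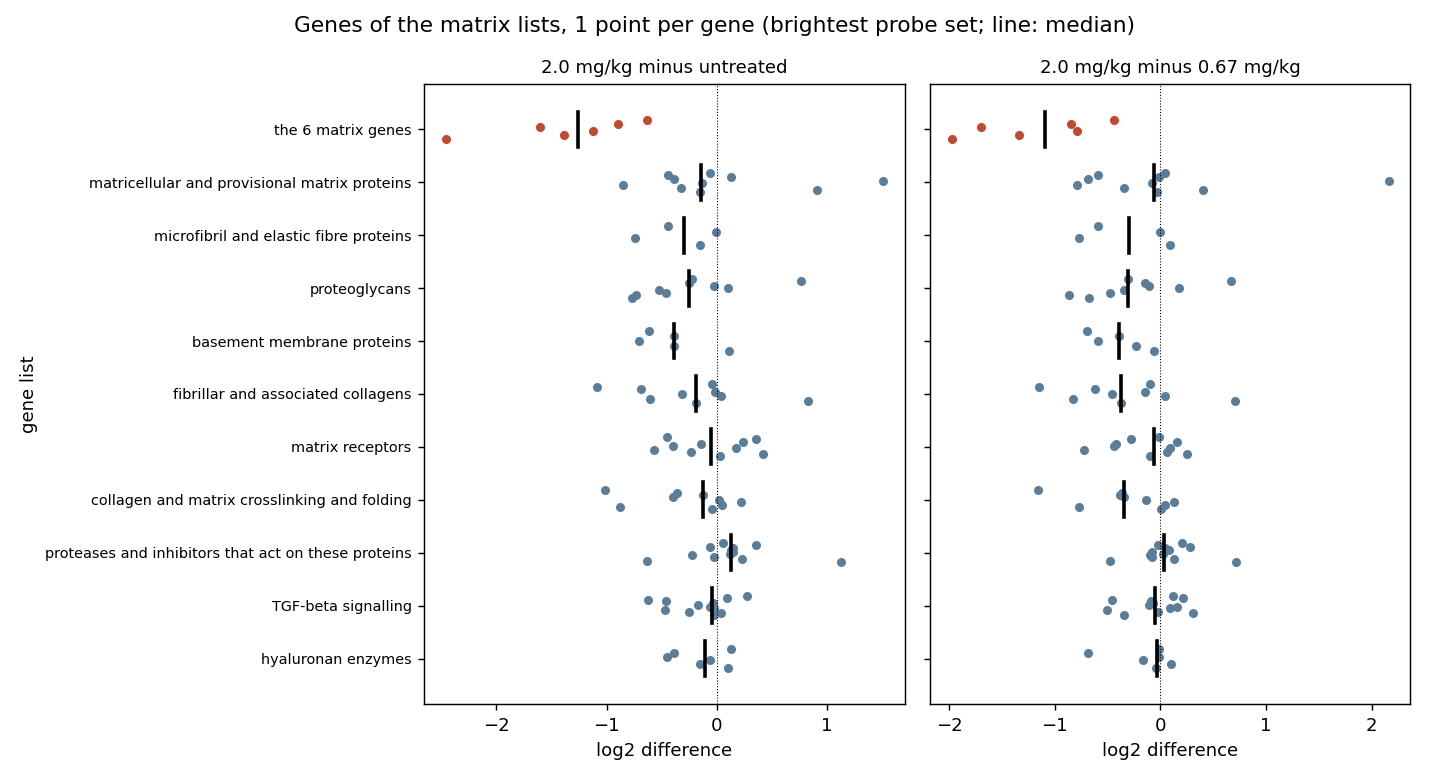
Log2 differences of single genes (points, brightest probe set) in the 6 matrix genes (red) and 10 matrix lists (blue), with the median as a black line, for 2.0 mg/kg minus untreated on the left and 2.0 mg/kg minus 0.67 mg/kg on the right. The 6 genes, chosen for the difference on the left, have medians of -1.25 and -1.09, and the lists have medians between -0.39 and 0.13 on the left.

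Markers of the cell types that such tissue can hold were followed in the same way, and 0 markers of any list passed in any of the 3 comparisons. Of 12 measured fibroblast markers, 9 were lower at the high dose than in untreated animals, with a median of -0.36. Without overlap, 5 were lower and 1, COL3A1 at 0.83 (mean 6.04), was higher, against 12% and 14.7% of all probe sets. Compared with the low dose, 10 of the 12 fibroblast markers were lower, with a median of -0.48. Their mean per array was 8.33 to 9.03 in untreated animals, 8.56 to 8.89 at the low dose and 8.18 to 8.37 at the high dose, so the untreated and high-dose ranges overlapped slightly. Of 11 macrophage markers 9 were lower than in untreated animals, with a median of -0.52 and 8 of them without overlap, against 12% of all probe sets. The macrophage mean was 6.74 to 7.13 in untreated animals, 6.71 to 7.23 at the low dose and 6.33 to 6.42 at the high dose. LAPTM5, a lysosomal protein of blood cells, was at -0.80 and the mannose receptor MRC1 at -1.17. No marker was listed at 0, since RMA gives each probe set a value.

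For the other cell types the medians between high dose and untreated were smaller. Myofibroblast markers had -0.15 with 4 of 7 lower, endothelial markers -0.23 with 7 of 10 lower, smooth muscle and pericyte markers 0.11 with 3 of 8 lower, and lymphocyte markers -0.02 with 4 of 7 lower. Mesothelial markers had 0.22 with 0 of 4 lower, adipocyte markers -0.18 with 4 of 4 lower, erythrocyte markers 0.01 with 1 of 3 lower and cardiac muscle markers 0.04 with 2 of 12 lower. CNN1, the actin-binding calponin of contractile cells and a marker in both the myofibroblast and the smooth muscle list, was higher at 1.99 ± 0.62 (SE) with no overlap (limma adjusted p = 0.454), opposite to FAP in the first of these lists. The endothelial genes ERG and PECAM1 were at -0.54 and -0.57, and the smooth muscle gene SMTN at 0.43, each with no overlap on the brightest probe set. A dimmer PECAM1 probe set gave -0.34 and dimmer SMTN ones 0.25 and 0.05, all with overlap. Without overlap, 4 of the 10 endothelial markers were lower and 3 higher, ENG at 0.27 among the latter. Of the 8 smooth muscle and pericyte markers, 1 was lower and 2 higher without overlap, against 12% and 14.7% of all probe sets. The low dose and untreated also differed in the array means of some lists. Mesothelial means were 4.31 to 4.57 in untreated animals, 4.97 to 5.25 at the low dose and 4.56 to 4.90 at the high dose. For smooth muscle and pericyte markers they were 9.12 to 9.77, 9.81 to 10.07 and 9.68 to 9.75 in the same order. Lymphocyte means were 4.463 to 4.50 in untreated animals and 4.28 to 4.456 at the low dose. The part of any cell type in the differences of the 6 genes was not tested.

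Immediate early genes, the first to be transcribed after a stimulus, had higher values at the high dose, though 0 passed. All 13 measured ones were above their level in untreated animals, with a median of 1.94 and 11 of them without overlap, against 14.7% of all probe sets. Their mean per array was 8.67 to 10.21 in untreated animals, 8.44 to 10.32 at the low dose and 10.999 to 11.31 at the high dose. KLF4 and NR4A2, both transcription factors, were at 1.52 and 3.31. The part of the immediate early response in the differences of the 6 genes was not tested.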

How the data were processed

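Expression was measured in 8 pigs with 1 array each, and the log2 values of 24123 probe sets are used as the authors deposited them. Tools listed in the submitters' processing notes are Partek 6.6 and RMA, without settings. RMA equalises the distributions of the arrays, so a change shared by most genes would be removed. Leaving out 124 control probe sets left 23999. The platform annotation gave 1 symbol to 10069 of them, several to 198 and none to 13732.

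All 8 arrays entered 1 limma fit (version 3.58.1, R 4.3.3) with a mean per group, 5 residual and 3.50 prior degrees of freedom. P-values were adjusted by Benjamini-Hochberg over all probe sets within a contrast, with a threshold of 0.05. The fit was also run on simulated data of independent normal noise with added shifts. Such data meet the assumptions of the fit, so this run checked the code only. Arrays carry no read depth, so their number limits the precision. Each array comes from another pig by its title. Replicate numbers follow sample order and pair nothing.

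The 6 genes and all lists were chosen with earlier results of these data known. Named genes were every member probe set, up to 4 genes of each matrix list and up to 2 of a marker list by smallest p between high dose and untreated, the 8 genes most like the mean profile and the 4 most opposite. PRELP, TGFB1, TGFB2 and TGFB3 were named after their values were seen. List values use the brightest probe set of a gene. Alternatives covered the variance prior, filters, scaling, the samples fitted, array weights, tag numbers and leaving out each array.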

Additional observations from a re-analysis of the deposited data

Results flagged for a closer look

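In 2 probe sets every low-dose animal lay above the untreated mean and every high-dose animal below it. One was the VCAN probe set with a mean of 3.68, with a difference between high and low dose of -0.82, and the other the TNFAIP6 probe set, with -0.68. limma's test of that difference did not pass for either (adjusted p = 0.266 for VCAN and 0.398 for TNFAIP6). Both have means close to background, where values hold no firm order.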

How the results depend on the processing

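Under all 18 alternatives the brightest probe set of each of the 6 genes stayed lower at the high than at the low dose. Both high-dose animals lay below all others on these probe sets, so leaving out an array, filtering or another prior could not turn the sign. Low values of the same high-dose animals chose the genes, so this is not independent evidence. None passed between high and low dose. The limma adjusted p for that comparison ranged from 0.0757 to 0.642 for POSTN, 0.0826 to 0.642 for FBN1, 0.066 to 0.764 for VCAN, 0.101 to 0.764 for LUM, 0.32 to 0.91 for FN1 and 0.333 to 0.94 for LAMB1. With the mean of all probe sets of a gene, the median over the 6 genes was -0.78 for high dose against untreated and -0.80 for high against low dose.

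Counts of called probe sets were less stable. For high dose against untreated, 0 became 4 with an intensity trend, 7 with a robust prior, 3 with arrays centred on their medians, 9 with quantile normalization repeated, 2 with only the 2 groups compared, 13 with array weights and 10 at an adjusted p under 0.1. It became 55 without untreated replicate 2 and low-dose replicate 1 and 70 with a term for those neighbouring tag numbers (untreated replicates 1 and 3, also neighbours, had no term), and leaving out 1 array gave 0 to 19, the highest without untreated replicate 2. For high against low dose, 6 became 1 with probe sets below the median left out, 0 with only the 2 groups compared, 10 with array weights, 14 at an adjusted p under 0.1, 12 without both of those animals and 25 with the tag term. Leaving out 1 array gave 0 to 7, with 0 without untreated replicate 1 or 3, low-dose replicate 2 or 3 or high-dose replicate 1, and 1 without high-dose replicate 2. For low dose against untreated, 0 became 1 without both animals. The cause was not tested.

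The small differences between low dose and untreated changed sign in some settings. Their median over the 6 genes, -0.12, was between -0.198 and -0.022 without 1 array and 0.043 without both animals. FBN1 was at 0.0017 with array weights, and without both animals FBN1 was at 0.021, FN1 at 0.064 and LUM at 0.13. Leaving out 1 array gave -0.18 to 0.084 for FBN1, -0.59 to 0.0039 for FN1, -0.64 to -0.21 for POSTN, -0.16 to 0.48 for VCAN and -0.19 to 0.13 for LUM. Without 1 high-dose animal the other is assumed to vary like the other groups. No paired analysis was possible, because each array came from another pig with 1 treatment and the labels name no pairs.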
